A study of Drosophila melanogaster with 24 samples.

Results

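The fat body of tumour-bearing Drosophila melanogaster larvae was compared between day 4 and day 5 after egg laying, to describe what the organ itself changes over this day while tumours grow in the wing discs. The comparison holds 8 of the 24 libraries of the study, 4 of each day, chosen by genotype and time point from the labels. These larvae carried C855a-Gal4/UAS-scrib-RNAi. C855a-Gal4 drives expression in epithelia such as the wing disc, and UAS-scrib-RNAi expresses an RNA hairpin that knocks down scrib, which keeps epithelial cells polarized and without which disc tissue overgrows. Control larvae, with 4 libraries at day 4 and 4 at day 5, carried C855a-Gal4/UAS-control-RNAi, so that the driver is common to all groups. Each library pooled the fat bodies of 50 larvae from eggs laid within 3 hours, and, per the labels, larvae with tumours never form pupae. Controls are used here only to show where the change of the tumour-bearing larvae differs. RNA was read as 150 bp pairs, and the deposited values are read counts per gene.

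The larval fat body does the work that liver and adipose tissue share in mammals. It stores fat and glycogen, secretes storage proteins, lipoproteins and basement membrane proteins into the blood, and answers to insulin, ecdysone and infection. Near the end of larval growth, the steroid ecdysone moves it from synthesis towards autophagy and the uptake of stored protein.

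Total counts were 19248124 to 22465798 per library at day 4 and 17069241 to 21711263 at day 5, with 8707 of 17698 genes kept for testing by a filter on low counts. Levels are CPM, counts divided by a library size that TMM scaling for a few abundant genes taking a large share of the counts. The 3 Lsp1 genes, which encode larval serum proteins, took 36.8 to 39.9% of counts at day 4 and 24.4 to 33.6% at day 5. The summed level of the 12 fat body markers was 552635 to 647869 CPM at day 4 and 280071 to 432204 CPM at day 5, and none of them was at 0. Most of the day 4 sum came from the 3 Lsp1 genes, with means of 112239, 214598 and 204436 CPM. By the edgeR test described below, 4 of the 12 markers were lower and 2 higher. Over all genes 24.5% were lower and 19.6% higher. The markers had a median log2 fold change of -0.21. RNA of other tissues differed between libraries of day 5. The 26 matched testis markers summed to 198 CPM in the day 5 library 1 and to at most 8.60 CPM in the other 7 libraries. The 27 gut markers summed to 442 and 310 CPM in day 5 libraries 1 and 2, to 31.8 and 34.8 CPM in libraries 3 and 4, and to 59.9 to 184 CPM at day 4. The 11 larval cuticle markers summed to 53.5 CPM in day 5 library 3 and to at most 2.95 CPM in the other 3 of that day. At day 4 they summed to 7.64 to 41.3 CPM. The 16 muscle markers summed to 505 CPM in day 5 library 3 and to at most 289 CPM in the other 3. Their day 4 sums were 306 to 401 CPM. The 13 salivary gland markers summed to 0.810, 84.2, 1.19 and 248 CPM in day 5 libraries 1 to 4. Their day 4 sums were 1.05 to 56.9 CPM. On the first principal component, which held 55.7% of the variance, the days did not overlap, and day 4 libraries 1 and 4 lay closer to day 5 (-21.2 and -22.3) than libraries 2 and 3 (-45.3 and -36.3). scrib, the gene targeted in the epithelia, was at 33.7, 39.0, 27.9 and 35.6 CPM in the day 4 libraries and 38.3, 34.4, 34.1 and 35.6 CPM in those of day 5, with overlapping days and a log2 fold change of 0.065 ± 0.10, adjusted p = 0.613; without day 4 library 3 its sign turned (-0.02). The fat body is not the labelled site of the knockdown, so this value does not check the labels.

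Of the 8707 genes tested, 3834 were called between the days, which is 44.0% of them, at a Benjamini-Hochberg adjusted p under 0.05 in edgeR's quasi-likelihood test. Of these, 1705 (19.6%) were higher and 2129 (24.5%) lower at day 5, and 676 (7.76%) and 711 (8.17%) were so by at least 2-fold. The 4 libraries of each day did not overlap for 3134 genes (36.0%). The median log2 fold change of all genes was 0.015. With library totals alone as the scale, a choice made after the data were seen, this median rose by 0.42 and 3662 genes were higher against 1007 lower, so directions below are relative to the bulk of genes. RLE scaling gave 2003 higher and 1870 lower, and DESeq2 2112 and 1929. These are pooled tissues, in which fewer cells of a type and less RNA per cell cannot be told apart.

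The same day in control larvae gave the measure of what differs with tumours. Controls called 4790 genes (55.0%), 2246 (25.8%) higher and 2544 (29.2%) lower. Of the 1705 genes higher with tumours, 885 were also called higher in controls, which is 51.9% of the tumour list and 39.4% of the control list, and 161 were lower there. Of the 2129 lower genes, 1431 were also lower in controls, 67.2% and 56.2% of the lists, and 187 were higher there. The difference between both changes was tested in the same model and called for 2511 genes (28.8%), with 1050 (12.1%) higher and 1461 (16.8%) lower in the tumour change than in the control change. This tested difference is given below, in log2 units, wherever a gene or group is said to differ between genotypes.

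Among called genes of at least 20 CPM in the higher group whose days did not overlap, CG32073 and CG12522 had the largest rises. CG32073 was at 2.59, 3.65, 1.11 and 2.35 CPM in the day 4 libraries and 108, 285, 364 and 294 CPM in those of day 5. Every day 5 library was far above every day 4 library, with a log2 fold change of 6.75 ± 0.97, adjusted p = 9.36e-06. CG12522, whose gene (3L:11108235-11108732, BDGP6.54 annotation) starts 652 bases beyond the end of CG32073 (3L:11107008-11107582), was at 1.75, 0.295, 0.929 and 1.89 CPM in the day 4 libraries and 46.0, 86.4, 86.2 and 76.2 CPM in those of day 5. It too did not overlap between days, with a log2 fold change of 5.96 ± 0.51, adjusted p = 8.48e-09.

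A pair of cytochrome P450 genes, whose family oxidises steroids, fatty acids and foreign compounds, were among the 12 largest rises. Cyp4e3 (2L:9747839-9750071) was at 31.0, 6.07, 8.67 and 18.8 CPM in the day 4 libraries and 454, 295, 338 and 299.6 CPM in those of day 5, a log2 fold change of 4.43 ± 0.38, adjusted p = 9.8e-09. Cyp6g1, known for its part in DDT resistance, was at 55.3, 8.25, 20.6 and 47.4 CPM in the day 4 libraries and 291, 349, 512 and 411 CPM in those of day 5, a log2 fold change of 3.57 ± 0.52, adjusted p = 1.05e-05. In both genes day 4 libraries 1 and 4 were above libraries 2 and 3, and all were below day 5. Other rises of this size were in genes of transport and glycosylation. Mdr49, an ABC transporter, went from 7.52 ± 2.98 to 99.6 ± 4.22 CPM (mean ± SD, n = 4), with day 5 libraries between 96.0 and 105 CPM. Ugt36D1, a UDP-glycosyltransferase, had a log2 fold change of 3.32, which was 4.30 without day 4 library 4, and emp, a scavenger receptor of the CD36 family, had 3.23. In emp, day 5 libraries 1 and 2 (22.7 and 30.3 CPM) were below libraries 3 and 4 (82.2 and 71.2 CPM).

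SPH93, a serine protease homologue, was at 25.6, 15.9, 22.5 and 24.8 CPM in the day 4 libraries and 289, 329, 446 and 519.9 CPM in those of day 5, with a log2 fold change of 4.16 ± 0.27, adjusted p = 4.87e-10. Its neighbour CG18563, 746 bases away on chromosome arm 2L, had 3.54. Both overlap CG5050 on the other strand, which had 4.23. The use of strand in counting is not given in the sources used here, so the reads of these 3 genes cannot be told apart. The other genes among the 12 largest rises were CG17224 with 4.51, CG6357 with 4.30 and bdl, an adhesion protein of the immunoglobulin superfamily, with 3.53. SPH93, CG18563, CG17224, CG6357, Mdr49, Ugt36D1 and emp had no called difference from controls. Their summed control counts were also higher at day 5, such as 746 and then 23997 for SPH93. The difference was called higher for CG32073, CG12522, Cyp4e3, Cyp6g1 and bdl.

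**Figure D1:**
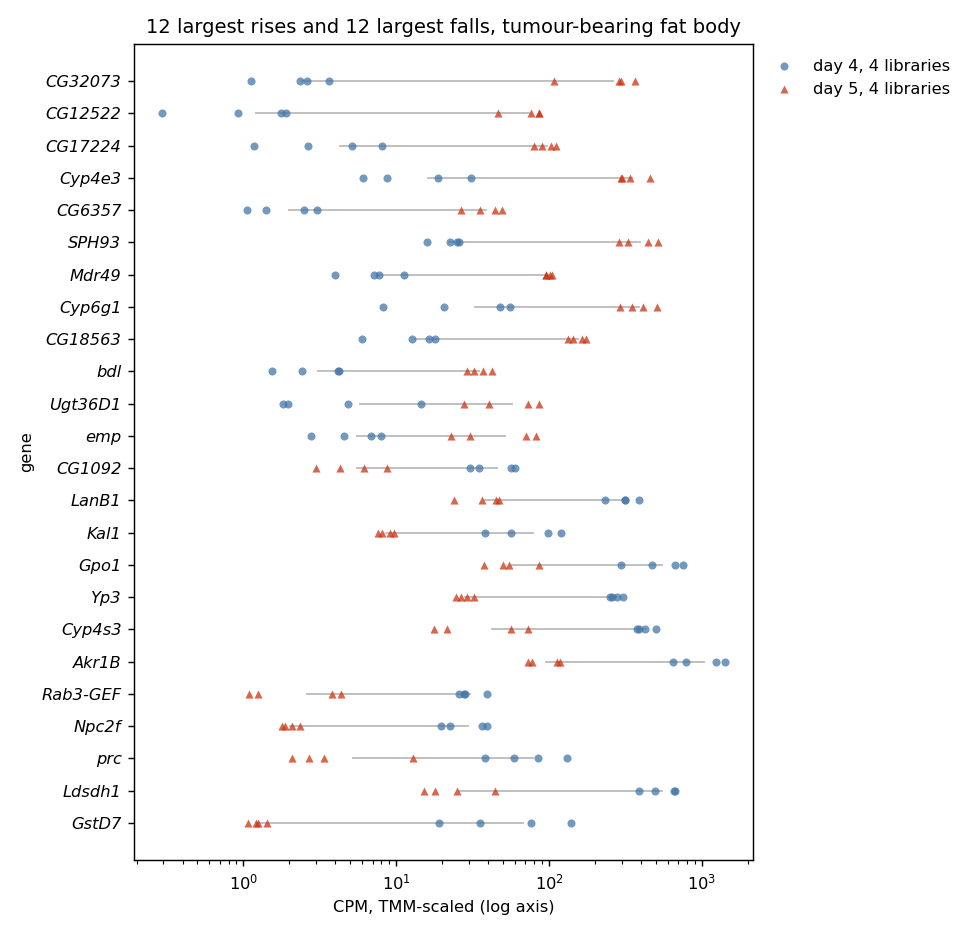
CPM (log axis) of the 12 genes with the largest rises and the 12 with the largest falls in each of the 4 day 4 and 4 day 5 tumour libraries, with a grey line between the group means. Every gene shows a gap between the days; CG32073 goes from at most 3.65 to at least 108 CPM and GstD7 from at least 19.1 to at most 1.42 CPM.

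The 12 largest falls by the same rule included enzymes, a yolk protein and matrix proteins. GstD7, a glutathione transferase (3R:12378500-12379255), was at 19.1, 139, 76.1 and 35.6 CPM in the day 4 libraries and 1.42, 1.07, 1.24 and 1.20 CPM in those of day 5. The day 4 libraries spread widely, but all lay above day 5, with a log2 fold change of -5.76 ± 0.61, adjusted p = 1.59e-07; without day 4 library 2 it was -5.14. Ldsdh1, a dehydrogenase found on lipid droplets, was at 390.4, 668, 658 and 492 CPM in the day 4 libraries and 44.3, 25.1, 17.8 and 15.1 CPM in those of day 5, a log2 fold change of -4.43 ± 0.33, adjusted p = 2.4e-09. Akr1B, an aldo-keto reductase, went from 1025 ± 366 to 95.04 ± 23.4 CPM, and Gpo1, the mitochondrial glycerol-3-phosphate dehydrogenase that feeds electrons from glycolysis to the respiratory chain, from 545 ± 203 to 57.3 ± 20.8 CPM. Their log2 fold changes were -3.43 and -3.25, and neither overlapped between days. Yp3, a yolk protein gene, was at 252, 259, 304 and 279 CPM at day 4 and 29.2, 32.1, 24.6 and 26.5 CPM at day 5, with tight groups and a log2 fold change of -3.28 ± 0.40, adjusted p = 1.03e-06.

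Cyp4s3 had -3.33 and Rab3-GEF -3.54. These genes overlap on opposite strands of chromosome X, so their counts are uncertain. In both, day 5 libraries 1 and 2 were above libraries 3 and 4, and without those 2 libraries the values were -4.44 and -4.69. CG1092 went from -3.03 to -3.64 and Ldsdh1 to -5.07 in the same way. Npc2f, of the sterol-binding NPC2 family, had -3.86, and Kal1, the gene next to it on 3R and a homologue of human anosmin, had -3.18. Among the 12 largest falls, GstD7, Akr1B, Gpo1, Yp3 and prc had no called difference from controls. Their summed control counts were also lower at day 5, such as 1270 and then 76 for GstD7. The difference was called lower for the others, among them LanB1 and Ldsdh1.

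Most genes of the basement membrane, whose proteins the fat body secretes, were lower. Of the 12 basement membrane genes tested, 9 were lower and 0 higher, against 24.5% and 19.6% of all genes, with a median log2 fold change of -0.62. In controls 8 were lower and 1 higher, with a lower median of -1.35. The difference was called higher for 3 and lower for 3, against 12.1% and 16.8% of all genes. LanB1 (2L:7811438-7820771), the laminin beta chain, was at 231, 389, 316 and 316 CPM in the day 4 libraries and 44.8, 47.2, 36.6 and 23.9 CPM in those of day 5. The highest day 5 value was far under the lowest of day 4, with a log2 fold change of -3.04 ± 0.21, adjusted p = 6.26e-10. In controls it was at 368, 344, 363 and 303 CPM at day 4 and 348, 272, 269 and 360.4 CPM at day 5, a log2 fold change of -0.14 ± 0.19, adjusted p = 0.552, and the difference between genotypes was -2.90 ± 0.27, adjusted p = 1.02e-07. The other laminin chains moved little beside it, with LanB2 at -0.50 (called) and LanA at -0.21 (not called). The collagen IV genes Col4a1 and vkg lie next to each other on 2L. Col4a1 went from 8799 ± 1374 to 3508 ± 708 CPM and vkg from 5109 ± 823 to 1759.6 ± 452 CPM, with log2 fold changes of -1.33 and -1.54. Controls gave -1.69 and -1.97, and no difference was called. PH4alphaEFB, the prolyl hydroxylase that collagen needs, had -1.58 ± 0.18, adjusted p = 4.47e-07 in edgeR. Its control value was -1.51, with no called difference. prc, which encodes the collagen-like pericardin and was not among the 12, had -3.89, and -4.86 without day 5 library 1, where it stood at 12.8 CPM against 2.07 to 3.36 CPM in the others.

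Genes of mitochondrial energy production were lower almost without exception. Of 62 genes of oxidative phosphorylation, 61 were lower and 0 higher, against 24.5% and 19.6% of all genes, with a median of -1.54. For all 61 the libraries of the days did not overlap, against 21.5% of all genes that were lower without overlap. The exception was ND-MWFE, at 0.55 CPM on both days, which was not called. COX7C, a subunit of cytochrome c oxidase, was at 145, 208, 215 and 159.7 CPM in the day 4 libraries and 51.4, 44.96, 38.0 and 37.5 CPM in those of day 5. Each day 5 library lay below each day 4 library, a log2 fold change of -2.08 ± 0.14, adjusted p = 4.87e-10. The largest falls on this list were sun, an ATP synthase subunit, with -2.37 ± 0.20, adjusted p = 7.83e-09, COX8 with -2.21 and UQCR-Q, of complex III, with -2.11. The mitochondrial ribosome followed, with 69 of 71 genes lower, 0 higher and a median of -1.08; mRpL14 went from 16.95 ± 5.45 to 4.24 ± 0.440 CPM. Controls had 61 and 67 lower genes on these lists, with medians of -1.39 and -0.84, and the difference was called lower for 8 and 5 genes and higher for 0, smaller shares than the 16.8% and 12.1% of all genes.

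In the tricarboxylic acid cycle 12 of 18 genes were lower and 1 higher, against 24.5% and 19.6% of all genes, with a median of -0.65. In controls 10 were lower and 1 higher (median -0.95). kdn, citrate synthase, was at 98.3, 342, 195 and 142 CPM in the day 4 libraries and 56.2, 31.6, 23.5 and 32.8 CPM in those of day 5, with the highest value in day 4 library 2 and no overlap, a log2 fold change of -2.43 ± 0.45, adjusted p = 0.000138. The pyruvate dehydrogenase subunits muc and Pdha had -1.62 and -1.58, and SdhC, of succinate dehydrogenase, had -1.30. Relative to library totals the cycle had 6 higher genes, and its median stayed below 0 at -0.25.

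Genes of sugar use were lower as well. All 7 pentose phosphate genes tested, which supply NADPH for fat synthesis, were lower, against 24.5% of all genes, with a median of -1.72. Zw, its first enzyme, was at 29.8, 126, 51.8 and 44.1 CPM in the day 4 libraries and 10.5, 7.52, 8.34 and 6.17 CPM in those of day 5; day 4 library 2 was far above the rest, and the days did not overlap (-2.95 ± 0.32, adjusted p = 1.97e-07). Taldo and Rpi had -1.91 and -1.76, and Pgd, with -1.72, went from 991 ± 265 to 301 ± 24.7 CPM. In glycolysis 12 of 16 genes were lower, against 24.5% of all genes, with a median of -1.08 over the list. Gapdh2 was at 1579, 1891, 2029.9 and 1772 CPM at day 4 and 653, 717, 546 and 629.9 CPM at day 5, a log2 fold change of -1.51 ± 0.15, adjusted p = 5.35e-08, and Pglym78, phosphoglycerate mutase, had -1.52. Hex-C, a hexokinase, had -2.87, which was -3.61 without day 5 library 1 and -4.07 without day 5 libraries 1 and 2. The 2 genes called higher were Pepck2, of gluconeogenesis, with 1.49, and G6P, glucose-6-phosphatase, with 2.34 (adjusted p = 0.0286), whose call was lost without day 4 library 1, 2 or 3 or day 5 library 1 or 2 (adjusted p up to 0.0867).

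Glycogen genes were lower too: 8 of 11 genes of trehalose and glycogen metabolism, against 24.5% of all genes, with a median of -0.73. Glys, glycogen synthase, was at 191, 271, 217 and 207 CPM in the day 4 libraries and 85.2, 87.0, 65.0 and 81.2 CPM in those of day 5, a log2 fold change of -1.48 ± 0.18, adjusted p = 8.52e-07. AGBE, the branching enzyme, had -1.67 and Gyg, the glycogenin that primes the chain, -1.74. UGP, which makes UDP-glucose, went from 328 ± 11.7 to 167 ± 19.0 CPM with tumours and from 178 ± 34.3 to 153 ± 17.9 CPM in controls, a difference of -0.76 ± 0.16, adjusted p = 0.00116. For the pentose phosphate, glycolysis and glycogen lists, control medians were -1.83, -1.32 and -1.10.

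The change of fat synthesis genes differed from that of controls. Of 21 lipid synthesis genes, 9 were lower and 2 higher with tumours (median -0.48), and 19 lower and 0 higher in controls (median -1.30). The difference was called higher for 9 genes and lower for 2, against 12.1% and 16.8% of all genes. FASN1, fatty acid synthase, was at 5161, 7331, 4639 and 5831 CPM in the day 4 libraries and 5230.4, 4828, 3925 and 5421 CPM in those of day 5, with overlapping days and a log2 fold change of -0.24 ± 0.23, adjusted p = 0.409, which turned to 0.16 relative to library totals. In controls it went from 4908 ± 1401 to 1771 ± 395 CPM (-1.47 ± 0.23, adjusted p = 1.78e-05), and the difference was 1.23 ± 0.32, adjusted p = 0.00646. ACC, Desat1, Men, Agpat2, Lpin, SREBP, SCAP and AcCoAS were the other 8 genes with a higher difference. The tumour change itself was largest in Agpat4, an acyltransferase, with -2.55 ± 0.37, adjusted p = 7.93e-06, ATPCL, ATP citrate lyase, with -2.09, Baldspot, a fatty acid elongase, with -1.996 and Gpdh1 with -1.93.

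Fat breakdown was mixed, with 5 of 18 lipolysis and oxidation genes higher and 8 lower, against 19.6% and 24.5% of all genes. The median was -0.15, which turned to 0.27 relative to library totals. Among the lower genes were Acox57D-d with -1.92 ± 0.15, adjusted p = 3.23e-09 in edgeR, CPT2 with -0.85 and wal with -1.08. These 3 work in fatty acid oxidation, but the lower and higher genes were not split by pathway step. The higher genes were Hsl, Lsd-1, whd, Lip3 and Lip4; without day 4 library 1 or 3 or day 5 library 2 or 4, 3 were called. The Lip3 call (1.64 ± 0.65, adjusted p = 0.0458) was lost without any of 5 libraries, namely day 4 libraries 1, 2 and 3 and day 5 libraries 2 and 4 (adjusted p up to 0.125). bmm, the main triglyceride lipase, was at 57.6, 69.9, 92.1 and 114 CPM in the day 4 libraries and 92.9, 102, 129 and 106 CPM in those of day 5, with overlapping days, and was not called (0.37 ± 0.17, adjusted p = 0.0902); it was called with RLE scaling (0.45, adjusted p = 0.0392), with DESeq2 and without day 4 library 4 (0.55, adjusted p = 0.0105).

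Genes of the secretory machinery were lower. Of 37 genes of the early secretory pathway, 32 were lower and 0 higher, against 24.5% and 19.6% of all genes, with a median of -1.24. The translocon channel was among the lowest. Sec61beta was at 313, 587, 534 and 323 CPM in the day 4 libraries and 79.2, 92.1, 67.4 and 79.0 CPM in those of day 5, with tight values at day 5 and a log2 fold change of -2.47 ± 0.22, adjusted p = 1.17e-08. Sec61alpha and Sec61gamma had -2.15 and -2.004, and SsRbeta, of the translocon-associated complex, -2.21. Among 17 genes of folding in the endoplasmic reticulum 15 were lower and 1, Ire1, was higher (0.45), with a median of -1.26. Hsc70-3, the chaperone BiP, was at 1468, 3319, 2570.2 and 2649.8 CPM in the day 4 libraries and 432, 498, 353 and 494 CPM in those of day 5, all day 5 values lying below day 4 (-2.49 ± 0.23, adjusted p = 1.71e-08). It fell less in controls, from 4800.0 ± 1017 to 2392 ± 644 CPM, and the difference was -1.49 ± 0.30, adjusted p = 0.00079. CaBP1, Gp93 and P58IPK had -2.57, -2.08 and -2.19 with tumours, and no difference was called for them. Control medians were -0.90 and -0.71, and the difference was called lower for 6 and higher for 2 genes on each of both lists. Over all genes these shares were 16.8% and 12.1%, so the secretory count was near the background.

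**Figure D2:**
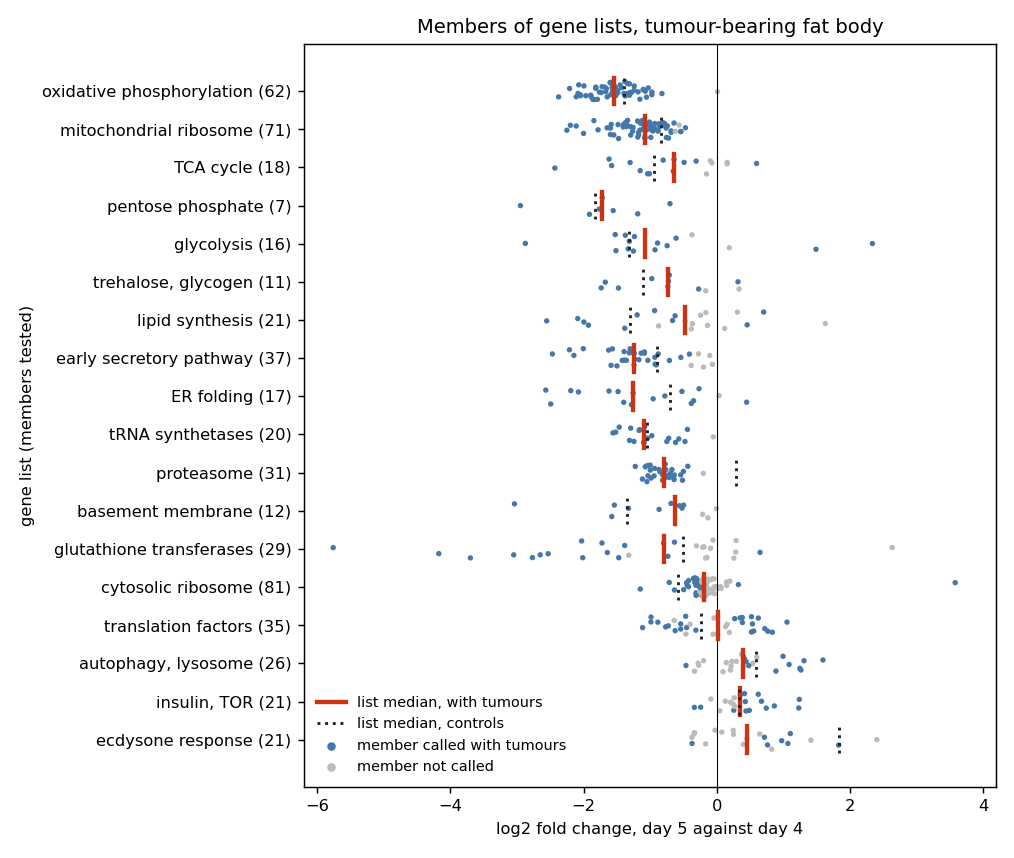
Log2 fold change of day 5 against day 4 for each tested member of 18 gene lists in tumour-bearing larvae (points, blue where called), with the list median with tumours (red bar) and in controls (dotted bar). Oxidative phosphorylation, with a median of -1.54, has 61 of its 62 genes below 0, and the proteasome medians lie on opposite sides of 0, -0.79 with tumours and 0.29 in controls.

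Protein synthesis did not move as 1 block. Of the 20 cytosolic tRNA synthetases tested, 19 were lower and 0 higher (median -1.09), against 24.5% and 19.6% of all genes. In controls all 20 were lower (median -1.05). The difference was called higher for 3 and lower for 0, against 12.1% and 16.8% of all genes. With tumours AsnRS went from 182 ± 38.2 to 61.8 ± 5.04 CPM and beta-PheRS had -1.52. Cytosolic ribosomal proteins moved little, with 26 of 81 lower and 2 higher, against 24.5% and 19.6% of all genes. Their median was -0.19, which turned to 0.23 relative to library totals. The count of lower genes ranged from 8 without day 5 library 3 to 40 without day 5 library 2, and was 10 without day 4 library 3 and 17 without day 5 library 1. It was 12 with RLE scaling, 17 with DESeq2 and 1 relative to library totals. In controls 79 were lower and 0 higher (median -0.58). The difference was called higher for 42 and lower for 0, against 12.1% and 16.8% of all genes. RpL41, among the 4 largest changes of the list, had -0.71 ± 0.15, adjusted p = 0.000645. RpS5b, a paralogue of RpS5a, had 3.58 ± 1.05, adjusted p = 0.00809. This value was carried by day 5 library 1 (8.76 CPM against at most 0.93 CPM in the other 7). That library had the highest sums of both testis and germ line markers, 198 and 16.8 CPM. Without that library the RpS5b value was 1.19 (adjusted p = 0.287).

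The translation factors moved in both directions. Of 35 tested, 13 were higher and 12 lower, against 19.6% and 24.5% of all genes, with a median of 0.012. In controls 0 of the 35 were higher and 21 lower (median -0.24). The difference was called higher for 17 and lower for 5. Over all genes it was higher for 12.1% and lower for 16.8%, so the lower count was near the background. eIF3, the large complex that joins the small ribosomal subunit to mRNA, stood on the higher side, a set singled out after its values were seen. Of its 13 subunit genes, 11 were higher and 1, eIF3j, lower, and eIF3k was not called (0.15). eIF3b was at 547, 392, 364 and 489 CPM in the day 4 libraries and 824, 912, 957 and 1028 CPM in those of day 5, every day 5 library above every day 4 library, with a log2 fold change of 1.05 ± 0.11, adjusted p = 6.73e-08. eIF3c, eIF3l and eIF3a had 0.84, 0.77 and 0.62. The summed level of the 13 genes went from 2840 ± 240.2 to 4341 ± 361 CPM. In controls 8 of the 13 were lower and 0 higher, with eIF3b at 386 ± 40.4 and 403 ± 17.6 CPM, and the difference was called higher for 12 of 13. The loosely bound eIF3j went from 125 ± 29.3 to 63.1 ± 2.87 CPM (-0.99 ± 0.13, adjusted p = 2.12e-06). Members of other complexes went both ways, with eIF4A at 0.39 and eIF4G1 at -0.77, and eEF1alpha1 at 0.72. Factors on the lower side included eIF2beta with -0.99 and eEF1delta with -1.11.

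The genes of the proteasome, which degrades ubiquitin-tagged proteins, changed differently from controls. Of 31 genes tested, 30 were lower and 0 higher (median -0.79), against 24.5% and 19.6% of all genes. All 30 were without overlap between days, against 21.5% of all genes, and Rpn13 was not called (-0.20). In controls 19 were higher and 2 lower (median 0.29), and the difference was called lower for all 31, against 16.8% of all genes. Prosbeta5, a catalytic subunit, was at 76.7, 97.5, 103 and 77.9 CPM in the day 4 libraries and 37.6, 43.8, 45.9 and 44.3 CPM in those of day 5, with a log2 fold change of -1.05 ± 0.11, adjusted p = 6.78e-08. In controls it was at 81.7, 87.6, 84.1 and 82.5 and 94.3, 74.6, 73.7 and 93.1 CPM, and the difference was -1.05 ± 0.15, adjusted p = 1.54e-05. Prosalpha5 and Prosbeta4 had -1.22 and -1.12.

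The subunits were also counted by the 2 particles of the proteasome, a split made after the values were seen. The 13 core particle genes tested, whose products form the proteolytic barrel, were all lower with tumours (median -0.999), from a summed 1145 ± 152 to 582 ± 20.8 CPM, while in controls 1 was higher and 2 lower. Of the 18 regulatory particle genes, whose products unfold and admit substrates, 17 were lower with tumours (median -0.68), from 1739 ± 148 to 1129.6 ± 41.1 CPM, and all 18 were higher in controls (median 0.43). The difference was called lower for every tested gene of both particles. The median stayed below 0 under each scaling tried, and was -0.37 relative to library totals.

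**Figure D3:**
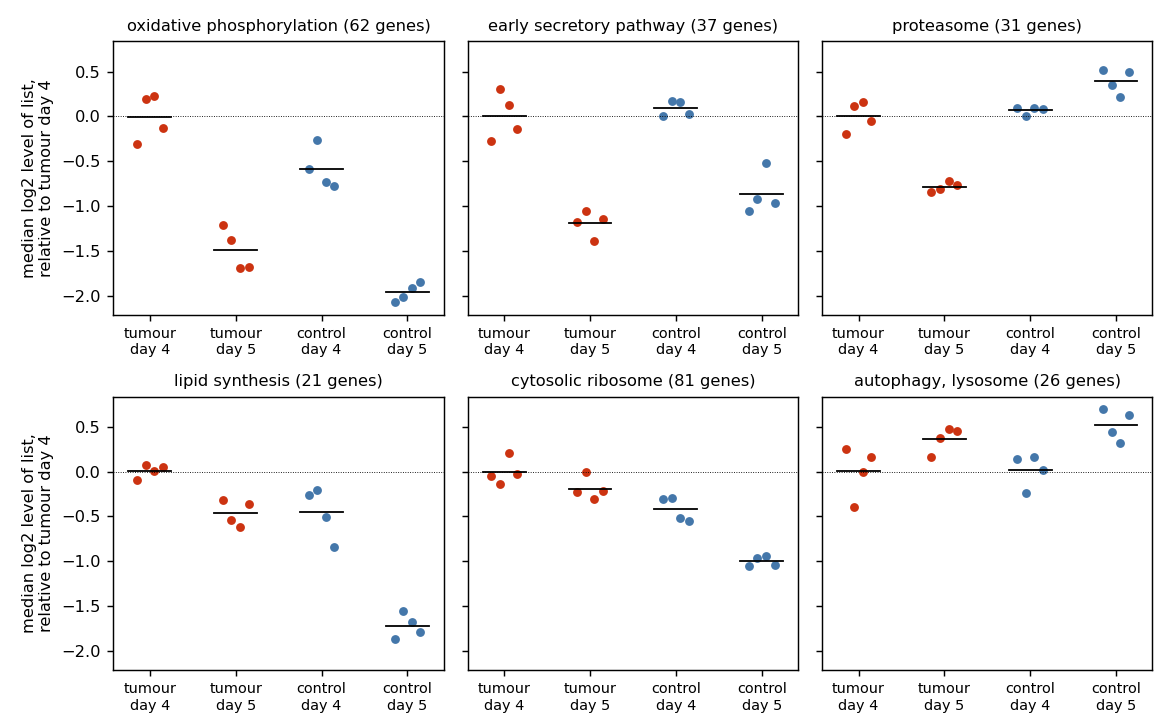
Median log2 level of 6 gene lists in each of the 16 libraries, relative to the mean of tumour day 4; bars are means of 4 libraries. Proteasome medians of the tumour day 5 libraries run from -0.85 to -0.72 and those of control day 5 from 0.22 to 0.52, while lipid synthesis runs from -0.62 to -0.31 with tumours and -1.87 to -1.56 in controls at day 5.

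Lysosomal proteases were among the largest rises of the autophagy and lysosome genes. Of 26 autophagy and lysosome genes, 11 were higher and 1, Atg16, lower, against 19.6% and 24.5% of all genes, with a median of 0.40. Relative to library totals 21 were higher. CtsB, cathepsin B, was at 86.5, 48.9, 75.9 and 88.1 CPM in the day 4 libraries and 157, 207, 279 and 261 CPM in those of day 5, without overlap, a log2 fold change of 1.595 ± 0.20, adjusted p = 1.23e-06. cathD, cathepsin D, went from 583 ± 229 to 1445 ± 210.4 CPM (1.31 ± 0.23, adjusted p = 8e-05) and was lowest in day 4 library 2. CtsL1 and Gba1b, a glucocerebrosidase, had 1.26 and 1.25. Atg2, Atg4a, Atg8a, Atg101 and Mitf, a transcription factor of lysosomal genes, were the other higher genes besides CtsF and Hexo2. In controls 20 were higher and 1 lower (median 0.59), and the difference was called lower for 9 genes, among them Atg1, Atg3, Atg5, Atg7 and CtsL1 (-1.46), and higher for 3. Over all genes the difference was lower for 16.8% and higher for 12.1%, so the higher count was near the background.

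The change of ecdysone response genes differed from that of controls. Of 21 ecdysone response genes, 6 were higher and 1 lower with tumours (median 0.45), against 15 higher and 3 lower in controls (median 1.83), and the difference was called lower for 9 and higher for 3. Over all genes the difference was lower for 16.8% and higher for 12.1%, so the higher count was near the background. The lower gene, ftz-f1 (-0.37), was not called in several settings, among them without day 4 library 1 or 2 or day 5 library 1 or 4. Oatp74D, the importer that brings ecdysone into cells, was at 283, 186, 203 and 303 CPM in the day 4 libraries and 809.8, 837, 948 and 873 CPM in those of day 5, a log2 fold change of 1.83 ± 0.14, adjusted p = 3.46e-09. In controls it was at 193, 180.1, 199.99 and 169 CPM at day 4 and 154, 148, 123 and 131 CPM at day 5, a fall (-0.42 ± 0.14, adjusted p = 0.016), and the difference was 2.25 ± 0.20, adjusted p = 5.21e-08. EcR, the ecdysone receptor, went from 74.1 ± 19.6 to 122 ± 42.1 CPM with tumours (0.72 ± 0.21, adjusted p = 0.00827, days overlapping) and from 113 ± 19.9 to 80.2 ± 16.1 CPM in controls, a difference of 1.21 ± 0.30, adjusted p = 0.00392.

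Several response genes had smaller changes than in controls. Eip75B, a nuclear receptor, was at 67.8, 49.5, 46.1 and 92.1 CPM in the day 4 libraries and 98.8, 120.0, 165 and 152 CPM in those of day 5 (1.07 ± 0.18, adjusted p = 6.16e-05), against 2.17 in controls and a difference of -1.10 ± 0.26, adjusted p = 0.00248. E23, an ABC transporter induced by ecdysone, had 0.97 ± 0.33, adjusted p = 0.0206, a call lost without day 4 library 2 or 3 or day 5 library 4 (adjusted p up to 0.0788), and a difference of -3.95. Hr4, a nuclear receptor, was at 0.771, 1.59, 1.18 and 1.36 CPM and then 1.37, 1.34, 0.725 and 0.983 CPM with tumours, and went from 1.35 ± 0.350 to 290.2 ± 57.0 CPM in controls, a difference of -7.91 ± 0.75, adjusted p = 1.16e-07. br, of the prepupal switch, was at 51.2, 82.3, 59.2 and 157 CPM in the day 4 libraries and 54.9, 65.3, 173 and 122 CPM in those of day 5, with overlapping days and 0.25 ± 0.31, adjusted p = 0.531; it was called without day 4 library 4 (0.69, adjusted p = 0.0497) and without day 5 libraries 1 and 2 (0.75, adjusted p = 0.0482). Eip93F, a later regulator, was at 0.210 ± 0.0974 and 0.370 ± 0.278 CPM with tumours and reached 17.6 ± 6.33 CPM in controls at day 5. Eip63E, a cyclin-dependent kinase gene, rose by 1.10 with tumours and 1.29 in controls, with no called difference.

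Of 10 juvenile hormone genes, 2 were lower and 0 higher with tumours, near the 24.5% of all genes that were lower. JhI-26 and JhI-21 were the lower genes, with -2.09 ± 0.35, adjusted p = 5.4e-05 and -1.98 ± 0.32, adjusted p = 3.01e-05, and Kr-h1, the main effector of the hormone, was at 3.44, 1.65, 1.80 and 2.497 CPM in the day 4 libraries and 2.28, 2.21, 3.99 and 3.88 CPM in those of day 5, overlapping and not called (0.41 ± 0.27, adjusted p = 0.243), with a difference from controls of -1.05 ± 0.38, adjusted p = 0.0433. Among the 6 storage protein genes, Fbp1 and Lsp2 were higher and Lsp1alpha and Lsp1gamma lower. Fbp1, the receptor for the uptake of Lsp1, was at 307, 259.6, 271 and 614 CPM in the day 4 libraries and 949, 4433, 2598 and 3978 CPM in those of day 5, above day 4 in every library (3.04 ± 0.64, adjusted p = 0.000543). Controls were at 44645 ± 31397 and 270834 ± 21827 CPM, a change of 2.60 from a far higher level, and no difference was called. Lsp2 went from 4148 ± 1284 to 6135 ± 654 CPM, with overlapping days (0.56 ± 0.16, adjusted p = 0.0056). Lsp1alpha had -1.80, and -2.48 without day 5 libraries 1 and 2, and Lsp1gamma -1.35. Lsp1beta was not called with tumours (-0.17) and fell in controls (-1.39), a called difference of 1.22. The 3 Lsp1 genes are closely related copies, and how the counting divided their shared reads is not given in the sources used here.

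Several insulin pathway genes rose. Of 21 insulin and TOR genes, 12 were higher and 2 lower, against 19.6% and 24.5% of all genes. The median was 0.35, against 0.33 in controls with the same counts. The count of lower genes was 1 with RLE scaling, with DESeq2 and without any 1 of 6 libraries (day 4 library 1, 2 or 4, day 5 library 1, 2 or 3), and 0 relative to library totals. InR, the insulin receptor, was at 13.9, 12.1, 8.61 and 15.8 CPM in the day 4 libraries and 25.4, 21.5, 37.2 and 34.6 CPM in those of day 5, without overlap (1.24 ± 0.18, adjusted p = 7.06e-06). Ilp6, the insulin-like peptide of the fat body, went from 104 ± 38.9 to 245 ± 40.1 CPM (1.23 ± 0.21, adjusted p = 5.09e-05). Thor, the translation repressor 4E-BP, was at 280.0, 111, 326 and 340.2 CPM in the day 4 libraries and 388, 418, 454 and 424 CPM in those of day 5, a log2 fold change of 0.67 ± 0.26, adjusted p = 0.0438, with the lowest value in day 4 library 2. The Thor call was lost without any 1 of 6 libraries (day 4 libraries 1 and 2, and each of day 5, adjusted p up to 0.126), its value was 0.41 without day 4 library 2, and the control change was larger (3.04 ± 0.28, adjusted p = 1.63e-08; difference -2.37 ± 0.38, adjusted p = 6.17e-05). ImpL2, a secreted insulin antagonist, was at 226, 259, 221 and 224 CPM in the day 4 libraries and 262, 345, 188 and 327 CPM in those of day 5, with overlapping days and no call (0.27 ± 0.16, adjusted p = 0.187); without day 5 library 3 it was called at 0.49 (adjusted p = 0.00972). REPTOR and REPTOR-BP, which act when TOR is low, had 0.74 and 0.86, and the REPTOR call was lost without day 4 library 1, 2 or 3 or day 5 library 3 or 4 (adjusted p up to 0.107), while its value was 1.19 without day 4 library 4. Myc was at 30.9, 66.7, 35.7 and 26.4 CPM in the day 4 libraries and 30.3, 37.2, 36.1 and 39.0 CPM in those of day 5, overlapping and not called, and its sign turned without day 4 library 2 (0.20) and relative to library totals (0.23).

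Of 14 secreted growth and adenosine signals, 7 were higher and 1, Idgf4, lower (median 0.44), against 19.6% and 24.5% of all genes. In controls 9 were higher and 2 lower (median 0.51). daw, an activin ligand, was at 265, 168, 186 and 257 CPM in the day 4 libraries and 384, 442, 464 and 470.3 CPM in those of day 5, without overlap (1.01 ± 0.16, adjusted p = 1.94e-05). Gbp1, a growth-blocking peptide, had 1.09 ± 0.19, adjusted p = 7.6e-05, against 3.60 in controls and a difference of -2.51 ± 0.27, adjusted p = 5.72e-07, and Adgf-D, an adenosine deaminase growth factor, had 0.82 ± 0.15, adjusted p = 0.000104. upd3, a cytokine, and Ilp8, the relaxin-like signal of damaged discs, were below the low-count filter. Ilp8 was at 0, 0, 5.39 and 0.0757 CPM at day 4 and 0.101, 0, 3.73 and 0 CPM at day 5, so library 3 of each day held nearly all of its reads. upd3 was at most 0.62 CPM.

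Purine synthesis was mixed, with 4 of 12 genes higher and 3 lower. Over all genes these shares were 19.6% and 24.5%, so the lower count was near the background. Gart, which catalyses several steps, was at 108, 127, 129 and 239.7 CPM in the day 4 libraries and 252, 456, 859.5 and 762 CPM in those of day 5, with the highest day 4 value in library 4 and still no overlap (1.95 ± 0.41, adjusted p = 0.000606). Pfas and Paics had 0.92 and 0.93, and mal, which serves xanthine dehydrogenase, had -1.02. Controls rose more in Gart (3.88), a difference of -1.93 ± 0.57, adjusted p = 0.0141.

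Stress peptides of the Turandot family rose. Of 5 tested, with 3 more under the low-count filter, 4 were higher and 0 lower, against 19.6% and 24.5% of all genes. Their median was 3.36. In controls 3 of the 5 were higher and 1 lower (median 1.26). The difference was called higher for 2 and lower for 0, against 12.1% and 16.8% of all genes. TotC was at 50.4, 12.6, 25.7 and 38.1 CPM in the day 4 libraries and 261, 221, 168 and 242 CPM in those of day 5, without overlap (2.82 ± 0.29, adjusted p = 1.12e-07), and at 8.402 ± 0.542 and 4.91 ± 1.48 CPM in controls, a difference of 3.59 ± 0.42, adjusted p = 1.54e-06. TotB went from 0.377 ± 0.137 to 3.94 ± 0.858 CPM (3.36 ± 0.43, adjusted p = 2.2e-06). TotZ had 1 read at day 4 and 191 at day 5, a ratio of 160.2 after scaling, with an exact binomial 95% interval of 28.4 to 6360 that covers counting error only. TotE had 0 reads at day 4 and 34 at day 5, at least 9.50-fold higher against a floor of 3 counts over the 4 day 4 libraries. Of 8 JAK/STAT genes 3 were higher and 0 lower; Socs36E, its feedback inhibitor, had 0.90 ± 0.25, adjusted p = 0.00615 and dome, the receptor, 0.52 ± 0.14, adjusted p = 0.00327, and both differed from controls (1.64 and 0.65). Over all genes 19.6% were higher. In controls 3 of the 8 JAK/STAT genes were higher and 2 lower. The count of higher JAK/STAT genes with tumours was 6 with RLE scaling, with DESeq2 and with scaling without the 20 most abundant genes. It was 5 without day 5 library 2. vir-1 had 0.51 ± 0.14, adjusted p = 0.00599, a smaller rise than in controls (difference -0.91). It was not called without day 5 libraries 1 and 2 (0.45, adjusted p = 0.0551) and was 0.34 without day 4 library 2.

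Immune genes gave few calls. Of 27 Toll and Imd genes, 3 were higher and 3 lower, against 12 and 5 in controls. Over all genes 19.6% were higher and 24.5% lower with tumours. PGRP-SD was at 23.1, 19.9, 18.5 and 23.5 CPM in the day 4 libraries and 35.7, 53.1, 44.4 and 49.9 CPM in those of day 5, without overlap (1.11 ± 0.16, adjusted p = 1.12e-05), and PGRP-LC, the main Imd receptor, had 0.76. SPE, the protease that activates the Toll ligand, and spz, the ligand itself, had -1.11 ± 0.20, adjusted p = 9.39e-05 and -0.69 ± 0.07, adjusted p = 6.8e-08. The number of higher genes was 6 with RLE scaling and 7 with DESeq2, and 5 without day 4 library 4. Of 16 antimicrobial peptides, 1 was higher and 0 lower. Drs was at 8.70, 10.02, 21.2 and 56.6 CPM in the day 4 libraries and 47.7, 50.6, 114 and 77.7 CPM in those of day 5, with overlapping days (1.59 ± 0.62, adjusted p = 0.044), and was not called without any 1 of day 4 libraries 1, 2 and 3 or day 5 libraries 3 and 4 (adjusted p up to 0.128). Without day 4 library 4 its value was 2.44. In controls it rose to 254 ± 95.1 CPM, a difference of -2.80 ± 0.89, adjusted p = 0.0213.

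Glutathione transferase genes were lower more than higher, and cytochrome P450 genes were called in both directions. Of 29 glutathione transferase genes tested, 16 were lower and 1, GstT4, higher (median -0.80), against 24.5% and 19.6% of all genes. In controls 12 of the 29 were lower and 3 higher (median -0.50). The difference was called lower for 8 and higher for 2, against 16.8% and 12.1% of all genes. The GstD genes, a cluster on 3R, were singled out after their values were seen: 8 of 9 tested were lower and 0 higher, with a median of -2.77, and the 11 GstD genes summed to 915 ± 262 CPM at day 4 and 193 ± 39.9 CPM at day 5. GstD4, GstD2 and GstD6 had -4.17 ± 0.50, adjusted p = 8.02e-07, -3.70 and -3.05. In controls 5 of the 9 were lower, and the difference was called lower for 3. Of 61 cytochrome P450 genes, 17 were higher and 15 lower, shares close to the 19.6% and 24.5% of all genes, with a median of 0.053. The difference from controls was called higher for 23 and lower for 7, against 12.1% and 16.8% of all genes. One of the 23 was Cyp4e3, at 2.74 ± 0.847 and 2.95 ± 1.01 CPM in controls and a difference of 4.34 ± 0.55, adjusted p = 4.39e-06. Cyp4p2 had -3.32 ± 0.63, adjusted p = 0.000295, from 2.28 ± 0.319 to 0.224 ± 0.0873 CPM. The tetraspanin genes of the Tsp42E cluster, also singled out later, had 6 of 13 higher and 1 lower, against 19.6% and 24.5% of all genes. In controls 8 were higher and 2 lower. All 17 genes of the cluster summed to 249 ± 49.4 CPM at day 4 and 524 ± 158 CPM at day 5 with tumours.

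Among genes called in the test of the difference, the largest differences were of several kinds. CG32073 and CG12522, named first among the rises, were not called in controls. There CG32073 was at 0.613, 11.5, 0.779 and 0.127 CPM at day 4 and 12.5, 5.00, 0.956 and 0.773 CPM at day 5, with 1 library of each day above the rest and a difference of 6.22 ± 1.25, adjusted p = 0.000745. CG12522 was at 0.460, 1.26, 0.701 and 0.637 CPM and then 3.03, 0.958, 0.281 and 0.238 CPM, a difference of 5.43 ± 0.85, adjusted p = 5.29e-05. The CG32073 difference was lost without control day 4 library 2 (3.46, adjusted p = 0.0958) and was 7.36 without control day 5 library 1, where CG12522 was 6.65. bdl was at 4.34 ± 2.19 and 5.33 ± 3.31 CPM in controls, a difference of 3.23 ± 0.54, adjusted p = 0.000117. CG12715 and Obp44a, with 12.12 and 7.72, each moved most with 1 control library: without control day 4 library 2 the first was 2.48 (adjusted p = 0.882), and without control day 4 library 4 the second was 2.43 (adjusted p = 0.0265). The CG12715 call was also lost without any 1 of 9 other libraries. Neither gene was called within the tumour-bearing larvae, but DESeq2 called CG12715 there (adjusted p = 0.00954), and a fit to the compared libraries alone called Obp44a (adjusted p = 0.0394).

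On the other side stood genes that rose in controls and not with tumours. CG9812 was at most 3.42 CPM with tumours and reached 2877, 2347, 1615 and 2938 CPM in controls, a difference of -9.05 ± 1.27, adjusted p = 1.63e-05. CG5697 and Drsl5, a drosomycin-like gene, had differences of -11.51 and -11.00, from at most 2.88 and 0.29 CPM with tumours to 209 ± 82.7 and 594 ± 203 CPM. The Drsl5 difference was not called without day 4 tumour library 2 or 3, nor without day 5 libraries 1 and 2 (adjusted p up to 0.151). CG1607, an amino acid transporter gene, fell with tumours (-2.08 ± 0.63, adjusted p = 0.0103, not called without day 5 libraries 1 and 2, adjusted p = 0.0531) and rose in controls to 549.6 ± 180.1 CPM, a difference of -8.64 ± 0.92, adjusted p = 5.72e-07. Hr4 was the fifth gene of this kind.

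**Figure D4:**
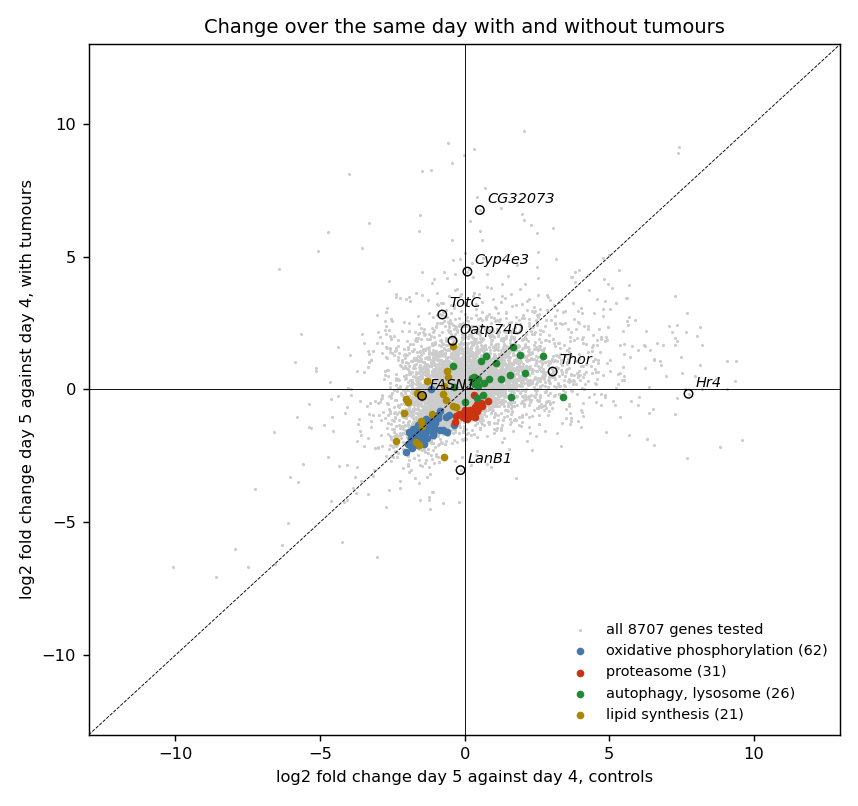
Log2 fold change of day 5 against day 4 with tumours (y axis) and in controls (x axis) for the 8707 genes tested, with 4 gene lists in colour and 8 genes named; the dashed line marks equal change. All 31 proteasome genes lie below the line of equal change, LanB1 lies at -3.04 with tumours and -0.14 in controls, and Hr4 at -0.17 and 7.75.

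The direction of a gene's change went with the length of its exons. Among the shortest of 5 bins of genes by exon length, 1731 genes with a median of 809 bases, the median log2 fold change was -0.34, with 170 higher and 658 lower. In the longest bin, 1725 genes with a median of 5814 bases, it was 0.32, with 587 higher and 128 lower. Spearman's rho across 8626 genes, which share the same libraries and are not independent, was 0.31 with tumours and 0.14 in controls, where the outer medians were -0.29 and 0.19. Several lists above are of short genes, with a median exon length of 848.5 bases for oxidative phosphorylation, 783 for the mitochondrial ribosome and 927 for the cytosolic ribosome. Their medians were -1.54, -1.08 and -0.19. The secretory and proteasome lists had 2132 and 1393 bases. The part of length in these results was not tested.

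**Figure D5:**
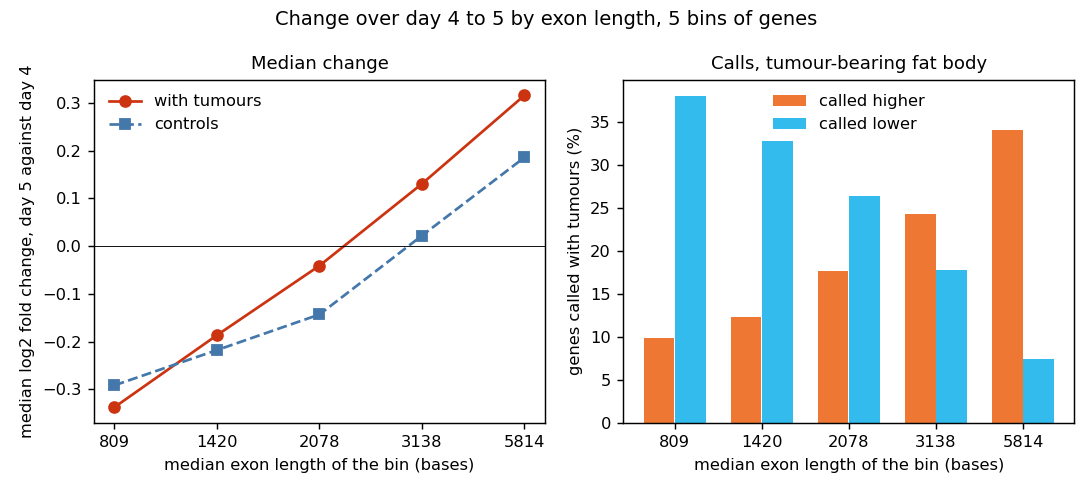
Left, median log2 fold change of day 5 against day 4 in 5 bins of genes by exon length, with tumours and in controls. Right, the share of genes in each bin called higher or lower with tumours; the median rises from -0.34 in the shortest bin to 0.32 in the longest.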

How the data were processed

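Whole-number counts of reads per gene were used as the authors deposited them, for 17698 genes and 24 libraries in 6 groups of 4. STAR 2.5.4a and the build BDGP6 are named per the submitters' processing notes, without a role. How reads were counted, and whether strand was used, is not given in the sources read here, so how near-identical or overlapping genes share reads is unknown. Symbols matched 17560 identifiers, and coordinates are from the BDGP6.54 annotation.

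Counts were filtered with filterByExpr (8707 genes left), scaled by TMM and tested with edgeR 4.0.16's quasi-likelihood test (robust; limma 3.58.1, R 4.3.3) in 1 model with a mean per group, with calls at 0.05 after Benjamini-Hochberg adjustment. The tested contrasts were day 5 against day 4 with tumours, the same in controls, and their difference. Values after ± are standard errors for log2 fold changes and SD over 4 libraries for CPM. The standard error is the log2 fold change divided by the square root of F. The biological coefficient of variation was 0.284. The code was tested on simulated data. DESeq2 1.42.0 and other scalings, filters and left-out libraries were alternatives.

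Named genes were the 12 largest rises and falls among called genes of at least 20 CPM without overlap, up to 4 called genes per list described, the 5 largest differences from controls in each direction, and 15 genes of prior interest. The members and lists were chosen with earlier results of these data known. The labels name pools of larvae, not separate cultures, so p-values measure the spread between pools. Intervals cover counting error only.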

Additional observations from a re-analysis of the deposited data

Results flagged for a closer look

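For 53 of the 143 named genes the tested difference between the tumour change and the control change was called by edgeR's quasi-likelihood test, 18 higher and 35 lower in the tumour change. All values are differences of log2 fold changes. Among the higher differences were CG12715 with 12.12, Obp44a with 7.72, CG32073 with 6.22, RpS5b with 5.94, TotZ with 5.59, CG12522 with 5.43, Cyp4e3 with 4.34, TotC with 3.59 and bdl with 3.23. Smaller ones were those of Oatp74D (2.25), Cyp6g1 (1.95), Socs36E (1.64), FASN1 (1.23), EcR (1.21), Myc (1.01), eIF3b (0.99), Lsp2 (0.67) and dome (0.65).

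The lower differences included CG5697 with -11.51, Drsl5 with -11.00, CG9812 with -9.05, CG1607 with -8.64, Hr4 with -7.91, Eip93F with -5.41 and E23 with -3.95. GstD4 had -2.95, LanB1 -2.90, Drs -2.80, Npc2f -2.76, Gbp1 -2.51, Thor -2.37, Kal1 -1.99, Rab3-GEF -1.97 and Gart -1.93. Agpat4 had -1.83, br -1.79, Ldsdh1 -1.70, Cyp4s3 -1.62, Hsc70-3 -1.49, CtsL1 -1.46, CG1092 -1.18, Eip75B -1.10 and Kr-h1 -1.05. The proteasome genes Prosbeta4, Prosalpha6, Prosbeta5 and Prosalpha5 had -1.19, -1.07, -1.05 and -0.88. vir-1 had -0.91, Sec61gamma -0.86, Sec61beta -0.85, UGP -0.76, PGRP-LC -0.75 and spz -0.36.

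In 11 of 241 groups of 4 libraries, 1 library stood apart by Dixon's test at its 95% critical value, and chance alone gives about 1 in 20. At day 5, library 1 was the highest in prc (12.8 CPM against 2.07 to 3.36), RpS5b (8.76 CPM against 0.109 to 0.933) and Obp44a (9.52 CPM against 1.19 to 2.08) and the lowest in Lsp2 (5156 CPM against 6411 to 6524). Library 3 of that day was the lowest in Sec61gamma (44.1 CPM against 57.7 to 59.9) and SerRS (46.0 CPM against 54.5 to 55.9) and the highest in Gba1b (58.9 CPM against 49.5 to 50.9). At day 4, library 4 was the highest in Fbp1 (614 CPM against 259.6 to 307) and Gart (239.7 CPM against 108 to 129), library 2 in ImpL2 (259 CPM against 221 to 226) and library 3 in Ilp8 (5.39 CPM against 0 to 0.0757).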

How the results depend on the processing

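The scale sets the balance of directions. Relative to library totals, 4669 genes were called with tumours, 78.4% of them higher against 44.5% with TMM, and 308 calls had the other sign. The share of higher calls was 57.0% against 46.9% in controls and 71.0% against 41.8% for the difference. A test against a minimum 2-fold change called 477 genes with tumours, 996 in controls and 403 for the difference. Other settings left the tumour count between 3102 (of 7459 genes, in a fit to the 8 libraries alone) and 4041 (DESeq2). Without 1 library at a time it was 3466 to 3846, with 4255 to 4833 in controls and 2216 to 2695 for the difference. Without day 5 libraries 1 and 2, chosen after the data were seen, it was 3460.

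Among named genes none of the sign changes was in a called value. Relative to library totals they were Hr4 (0.23), FASN1 (0.16) and Myc (0.23). Without 1 library at a time, Hr4 ranged from -0.33 to 0.072, CG9812 from -1.13 to 1.22 (including -0.026 without day 4 library 4), scrib from -0.023 to 0.16, Myc from -0.32 to 0.20 and br from -0.037 to 0.69; the cause was not tested. RLE scaling ended no call among them and added 1, that of bmm, and the 2-fold minimum ended 52. Of 56 list counts, 26 moved by over 1.5 times relative to library totals and 7 with RLE scaling.

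Replicate numbers were not used as pairs, and whether libraries of the same number shared handling was not tested. Deviations from the group means of same-numbered tumour libraries correlated at -0.0072, 0.08, 0.38 and 0.15. Differently numbered tumour libraries gave -0.33 to 0.18, so the value of 0.38, for library 3 of each day, was the highest. With a replicate block the count was 3768 (4700 in controls), 0 list counts moved, and the calls of Thor (0.69, adjusted p = 0.0514 in edgeR) and of the CG12715 difference (adjusted p = 0.118) were lost. Depth limits genes such as upd3, under 1 CPM in each library.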

Other observations

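Mitotic genes, not described above, changed differently from controls. Of 20 mitotic genes, 2 were higher and 0 lower with tumours, with a median log2 fold change of 0.99. The count of higher genes was 0 without day 4 library 4 or day 5 library 1 and 10 without day 4 library 3, over all left-out libraries with medians from 0.67 to 1.69, and it was 7 with DESeq2. Among markers of the germ line 4 of 6 tested were higher, and among those of testis 4 of 5. Another 4 and 21 markers were under the low-count filter. Summed levels of these markers were 2.65 to 3.90 and 1.82 to 2.83 CPM at day 4. At day 5 they were 5.10 to 16.8 and 4.31 to 198 CPM, with both highest values in library 1. The part of these markers in the mitotic genes was not tested. In controls 1 mitotic gene was higher and 12 lower, with a median of -1.78. The difference was called higher for 13 and lower for 0, against 12.1% and 16.8% of all genes. Of 37 DNA replication genes, 4 were higher and 0 lower with tumours and 3 higher and 13 lower in controls, and the difference was called higher for 5 and lower for 1, near the share over all genes for the higher side.

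Of 7 circadian clock genes tested, 4 were higher and 0 lower with tumours, against 19.6% and 24.5% of all genes. The difference was called higher for 2 and lower for 1. Over all genes it was higher for 12.1% and lower for 16.8%, so the lower count was near the background. per, a repressor of the clock, went from a mean of 0.711 to 8.56 CPM, a log2 fold change of 3.60 (adjusted p = 1.72e-07 in edgeR), without overlap between days, and the difference from controls was 3.10 (adjusted p = 0.000111). tim, its partner, had 0.88 with tumours, fell by 0.99 on the log2 scale in controls, and had a difference of 1.87. No source used here gives the hour of dissection, and the part of sampling time was not tested. cyc, an activator of the clock, rose by 0.95 with tumours and by 1.68 in controls, a difference of -0.74 (adjusted p = 0.03 in edgeR). These genes were singled out after their values were seen.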
